A study of Mus musculus with 6 samples.

Results

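AP-1 is a transcription factor built from paired proteins of the Fos and Jun families, which hold each other through a leucine zipper and grip DNA with an adjoining basic region. Fos proteins need a Jun partner to bind DNA, whereas Jun proteins can also pair among themselves. In cortical neurons Fos, Fosb and Junb are immediate-early genes: synaptic activity and calcium entry switch them on within minutes through factors that are already present. Jund is made steadily in most cells, and Jun is also known for its induction by stress kinases and after injury to axons. The members described here are all probe sets that the platform annotation assigns to Fos, Fosb, Fosl2, Jun, Junb or Jund. There were 8 such probe sets for 6 genes among the 12488 on the array, and 7 of the 8 were bright enough to be tested, at least 1 for each gene. Named genes on the array numbered 8251 in all.

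RNA came from the visual cortex of wild-type adult mice of the C57Bl6 strain. Per the labels, 4 mice lost an eye at postnatal day 100 and were killed 4 days later. The deprived group (3 arrays) was cortex contralateral to the removed eye and the non-deprived group (3 arrays) was cortex ipsilateral to it, so both groups came from operated mice and neither was an unoperated control. The design text speaks of pooled samples without saying how many pools there were, and the p-values therefore reflect array-to-array spread that may be technical.

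The values were MAS5 signals, an arbitrary brightness unit on a linear scale that cannot be compared between probe sets. The median signal was 203.0 to 219.7 on the 6 arrays. Non-deprived replicate 3 stood apart in 1 control: the 18S ribosomal RNA 3′ control read 2689 there, against 661 to 981 on the other arrays. Excitatory neuron markers were measured in both groups, among them the forebrain transcription factor gene Tbr1 and the postsynaptic kinase gene Camk2a, chosen after their values were seen. Of 52 tested marker genes of neurons, glia, vessels and neighbouring regions, 0 passed limma's threshold (adjusted p under 0.05) and 6 had an unadjusted p under 0.05 (5.09% of all tested probe sets did). Of these 6, 3 were among the 7 tested GABAergic genes, and all 3 were lower in deprived arrays. The smallest marker p was that of Sst, a GABAergic gene (log2 change -0.39, SE 0.08, limma adjusted p = 0.26), named after its values were seen. The marker with the largest change in its list was Neurod6 for excitatory neurons (log2 change 0.49), Npy for GABAergic neurons (-0.42), Nefl for neurons at large (-0.19), Slc1a2 for astrocytes (0.29) and Cx3cr1 for microglia (-0.29). It was Sox10 for oligodendrocytes (0.24), Tagln for vessels (-0.42), Lef1 for thalamus (-0.43), Zbtb20 for hippocampus (0.62) and Penk for striatum (-0.11). Such a gene does not stand for its list. Among tested microglia genes 1 was lower and 4 higher, and for excitatory neurons 2 were lower and 4 higher. Oligodendrocyte genes split into 2 lower and 4 higher, and vessel genes into 3 lower and 2 higher. The split was 6 and 1 for neurons at large, 4 and 0 for thalamus and 2 and 1 for striatum. Summed marker signals of the groups overlapped for 7 of the 10 lists. They did not overlap for GABAergic neurons (13891 to 15701 in deprived arrays, 17301 to 18201 in non-deprived arrays), for astrocytes (12405 to 13913 in deprived arrays, 13928 to 14932 in non-deprived arrays) or for hippocampus (1582 to 2022 in deprived arrays, 1289 to 1519 in non-deprived arrays). Such sums are carried by the brightest probe sets. Among astrocyte genes Aldoc, a glycolytic enzyme, read 7211 ± 838 in deprived and 8529.6 ± 546 in non-deprived arrays (SD, n = 3 each), while 3 genes of the list were lower and 3 higher, with a median log2 change of 0.04. For GABAergic neurons 6 were lower and 1 higher, and for hippocampus 1 lower and 2 higher. Their part in the results below was not tested, and fewer cells of a type cannot be told apart from less RNA per cell in such tissue.

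The comparison asks which AP-1 subunits differed between cortex deprived of most of its eye input and cortex still served by the remaining eye. Fos and Junb were lower in deprived than in non-deprived cortex. A gene or probe set said here to fall or rise was lower or higher in deprived than in non-deprived arrays. Without an unoperated control, a change on one side cannot be told apart from a change on the other. Fosb was lower on each deprived array than on any non-deprived array but did not pass the test, and the intervals for Jun, Jund and Fosl2 included 0. Of the 7 tested member probe sets, 3 fell and 0 rose, where 0.161% of all 7453 tested probe sets fell and 0.0134% rose (limma, adjusted p under 0.05). The 3 stand for 2 genes, since Junb has 2 probe sets. On 4 of the 7, all deprived arrays read below all non-deprived arrays, against 4.59% of all tested probe sets.

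**Figure D1:**
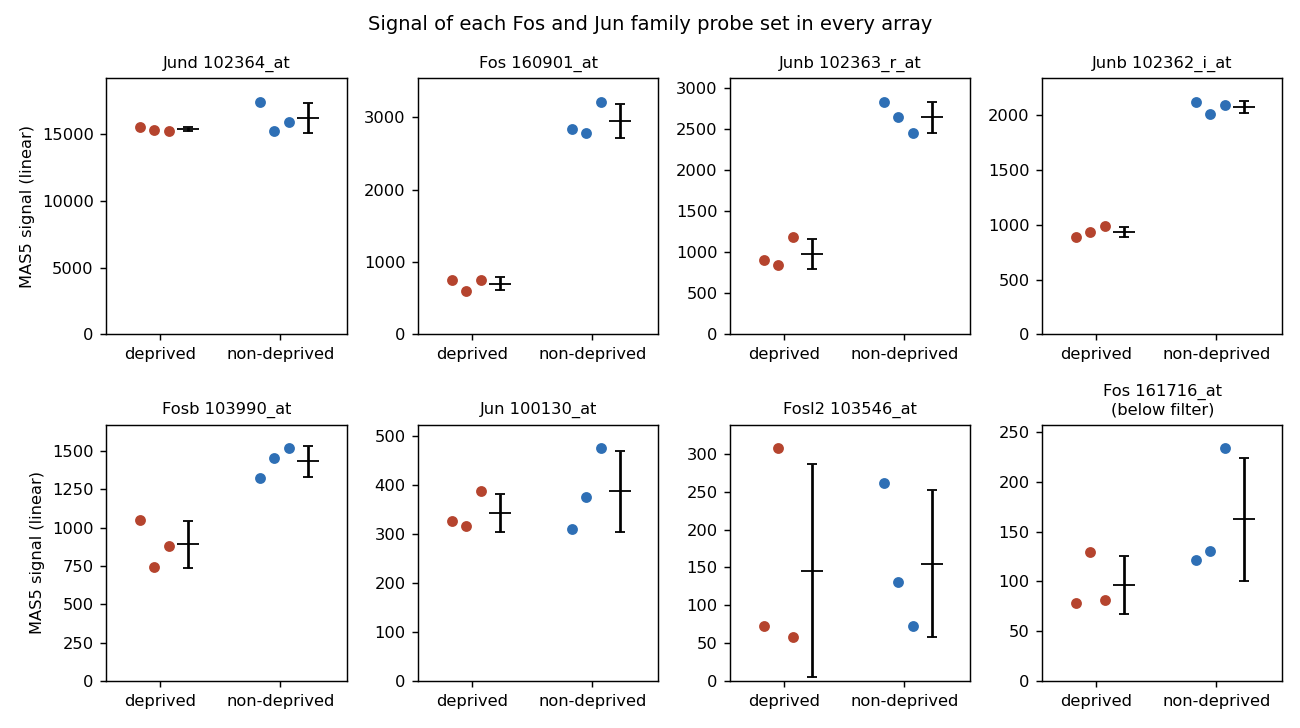
MAS5 signal (linear axis from 0) of each member probe set, brightest first, in the 3 deprived arrays (red) and the 3 non-deprived arrays (blue). Black bars give the mean and SD of each group. The groups are apart for the bright Fos probe set, both Junb probe sets and Fosb, and overlap for Jund, Jun, Fosl2 and the dim Fos probe set.

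Fos, the subunit whose transcript is the usual marker of recently active neurons, had signals of 758, 602 and 749 in the deprived arrays, against 2837, 2784 and 3217 in the non-deprived arrays on its bright probe set (160901_at). The arrays of each group lay close together and the groups were far apart. Mean signals were 703 ± 87.7 in deprived and 2946 ± 236 in non-deprived arrays (SD, n = 3 each), a 4.19-fold fall in the ratio of means. On the log2(signal + 16) scale the change, deprived minus non-deprived, was -2.05 (SE 0.12, 95% interval -2.32 to -1.77, limma adjusted p = 0.00014). Fos had the smallest p of all tested probe sets, and 1 of the 7453 had a lower log2 change.

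A dim probe set of Fos (161716_at) read 78.7, 129.8 and 81.1 in the deprived arrays, against 122, 131 and 234 in the non-deprived arrays. The highest deprived array lay above the lowest non-deprived array, so the groups overlapped. Its mean over all arrays was 129.5, just under the 134.7 that the filter on dim probe sets required, and it was not tested. Its log2 change was -0.64, in the direction of the bright probe set and smaller.

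Junb, the Jun family protein that neurons induce together with Fos and that can pair with it, is covered by a pair of probe sets made from the same transcript record. The names of both carry a letter (_r, _i) that marks a probe set short of the usual design requirements. The brighter (102363_r_at) read 908, 847 and 1187 in the deprived arrays, against 2832, 2644 and 2446 in the non-deprived arrays. The dimmer (102362_i_at) read 893, 933 and 986 in the deprived arrays, against 2124, 2013 and 2092 in the non-deprived arrays. On both, every deprived array was well below every non-deprived array. The fall in the ratio of means was 2.69-fold on the brighter probe set (log2 change -1.43, SE 0.14, limma adjusted p = 0.0014) and 2.22-fold on the dimmer one (-1.13, SE 0.10, limma adjusted p = 0.0011). The pair share their target and count as 1 gene.

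Fosb, a Fos family protein whose shortened splice form is known to accumulate with repeated activity, read 1052, 744 and 878 in the deprived arrays, against 1325, 1458 and 1519.7 in the non-deprived arrays (103990_at). The highest deprived array was below the lowest non-deprived array. Mean signals were 891 ± 155 in deprived and 1434 ± 99.6 in non-deprived arrays (SD, n = 3 each), a ratio of 0.622. The log2 change was -0.69 (SE 0.14, 95% interval -1.003 to -0.37) and did not pass (unadjusted p = 0.00069, limma adjusted p = 0.23). It ranked 22nd by p among all tested probe sets. The deposited values hold 1 probe set for Fosb, and the annotation does not say which splice form it reads.

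Jund, the Jun family member that most cells make without stimulation, was the brightest member probe set, above 99.7% of all probe sets in mean signal (102364_at). It read 15539, 15328 and 15268 in the deprived arrays, against 17432, 15251 and 15891 in the non-deprived arrays. The deprived values lay within the range of the non-deprived ones, and non-deprived replicate 1 stood highest. The log2 change was -0.07 (SE 0.07), with a 95% interval of -0.23 to 0.08, the narrowest of the members (limma adjusted p = 0.97).

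Jun, the founding member of the Jun family and a substrate of the JNK stress kinases, read 326, 316 and 387 in the deprived arrays, against 310.3, 374 and 474 in the non-deprived arrays (100130_at). The groups overlapped, with the lowest value in a non-deprived array. The log2 change was -0.15 (SE 0.19, 95% interval -0.59 to 0.29, limma adjusted p = 0.97). It was 0.0038 once non-deprived replicate 3, whose 18S control was high, was left out.

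Fosl2, which encodes the Fos family protein Fra-2, read 72.2, 308 and 57.4 in the deprived arrays, against 262, 131 and 72.3 in the non-deprived arrays (103546_at). Each group spread over several fold, and the highest value was in a deprived array. Its mean of 150.3 was just above the filter and is not shown to lie above background. The log2 change was -0.26 with a 95% interval of -1.64 to 1.12 (SE 0.62, limma adjusted p = 0.98), so a change of either sign as large as that of Fosb was not detectable.

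**Figure D2:**
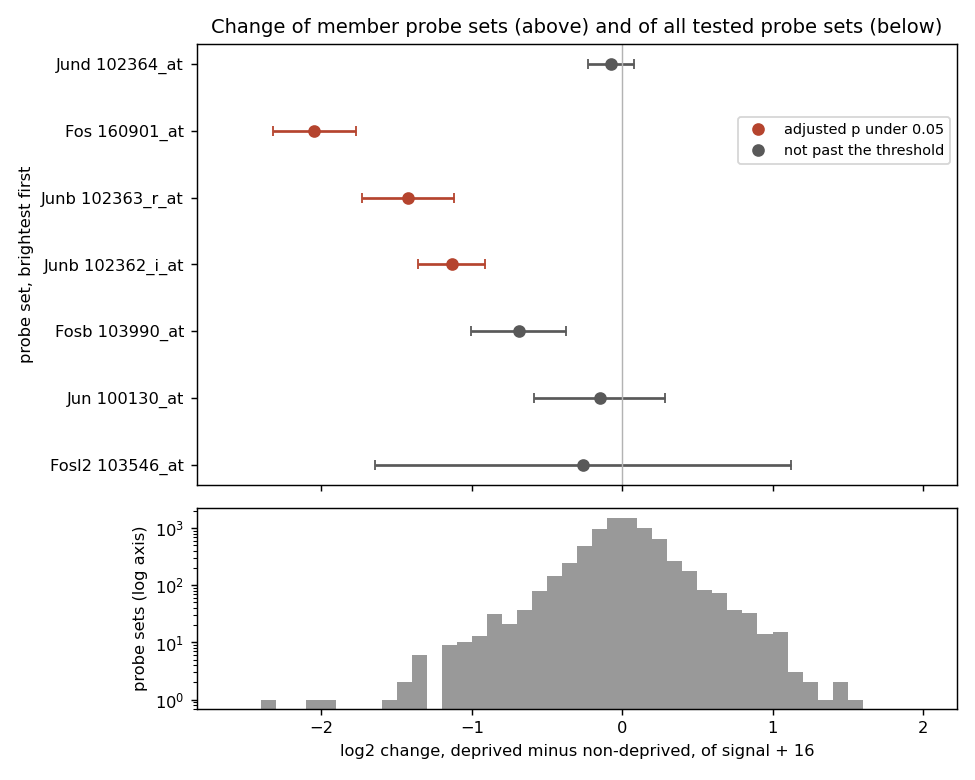
Upper panel: log2 change (deprived minus non-deprived, of signal + 16) of the 7 tested member probe sets with its 95% interval, coloured by whether the adjusted p was under 0.05. Lower panel: the same quantity for all 7453 tested probe sets, with their number on a log axis. Fos at -2.05 lies at the far left of all tested probe sets, and Jund at -0.07 lies in their centre.

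The contrast between members was tested directly. In each array the log2(signal + 16) of Fos was subtracted from that of each other member, using the brightest probe set of each gene, and this difference was compared between the groups. The absolute size of such a difference depends on the probes, so only its shift between groups is read here. The shift also varies with the probe set used: for Junb it was 0.62 with the brighter and 0.91 with the dimmer probe set. With 3 against 3 arrays the two-sided exact permutation test cannot give a p below 0.1, and 0.125 is the smallest value that these 5 comparisons reached after Benjamini-Hochberg adjustment.

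Jund minus Fos was 4.43 ± 0.18 in deprived and 2.45 ± 0.16 in non-deprived arrays, a shift of 1.97 (SE 0.14, exact permutation p = 0.1, adjusted p = 0.125). Jun minus Fos was -1.0004 ± 0.16 in deprived and -2.90 ± 0.21 in non-deprived arrays, a shift of 1.90 (SE 0.15, exact permutation p = 0.1, adjusted p = 0.125). For both, the groups were far apart, since the log2 change of Fos was the more negative. Fosb minus Fos was 0.33 ± 0.12 in deprived and -1.03 ± 0.09 in non-deprived arrays, a shift of 1.36 (SE 0.09, exact permutation p = 0.1, adjusted p = 0.125).

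Junb minus Fos was 0.46 ± 0.20 in deprived and -0.16 ± 0.21 in non-deprived arrays, a shift of 0.62 (SE 0.17, exact permutation p = 0.1, adjusted p = 0.125). The log2 change of Junb was less negative than that of Fos, and the groups did not overlap (0.25 to 0.65 in deprived arrays, -0.39 to -0.0028 in non-deprived arrays). Fosl2 minus Fos overlapped between the groups (shift 1.79, SE 0.94, exact permutation p = 0.2, adjusted p = 0.2). With the dim Fos probe set in place of the bright one the shift of Junb was -0.79 and that of Fosb was -0.048, but that probe set is under the filter and is not shown to lie above background, so these values give no order.

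**Figure D3:**
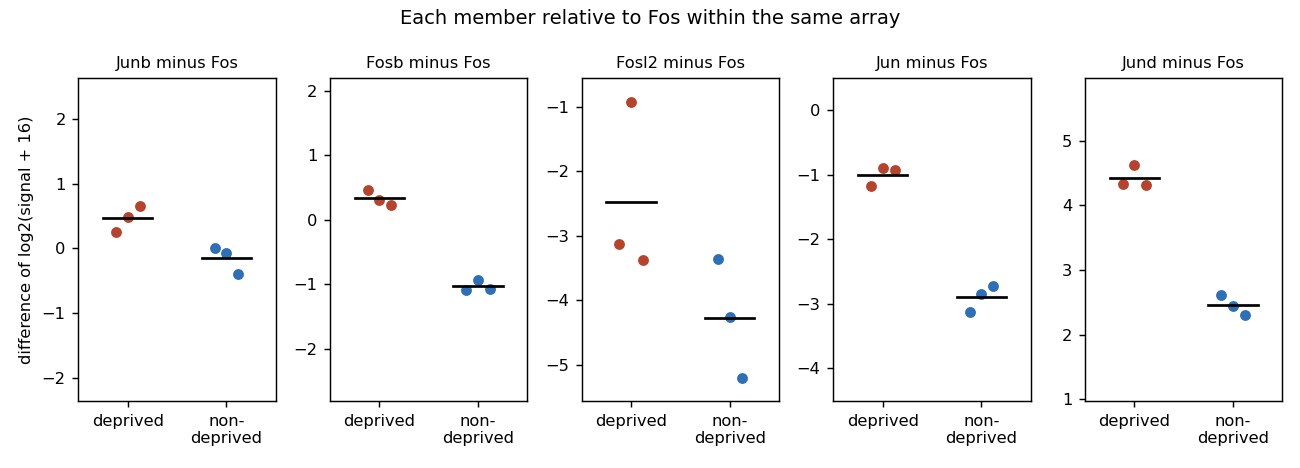
Log2(signal + 16) of each other member minus that of Fos in the same array, for the 3 deprived arrays (red) and the 3 non-deprived arrays (blue); bars are group means and each vertical axis spans the same number of log2 units. The groups are apart for Junb, Fosb, Jun and Jund, with a shift of 0.62 for Junb and 1.97 for Jund, and overlap for Fosl2.

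The 10 pairs without Fos were compared in the same way, and p-values were adjusted over all 15 pairs. Within the Jun family, Jund minus Junb was 3.96 ± 0.26 in deprived and 2.61 ± 0.09 in non-deprived arrays, a shift of 1.36 (SE 0.16, exact permutation p = 0.1, adjusted p = 0.17). Junb minus Jun shifted by -1.28 (SE 0.24) with the same p-values. Jund minus Jun shifted by 0.08 (SE 0.23, exact permutation p = 0.8, adjusted p = 0.92), so no difference between these members was detectable. Fosb had an intermediate log2 change. Junb minus Fosb shifted by -0.74 (SE 0.22) and Jund minus Fosb by 0.62 (SE 0.17), both with an exact permutation p = 0.1 and an adjusted p = 0.17. In all, 9 of the 15 pairs reached the smallest possible p, and no pair with Fosl2 was among them.

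Promoter sequence is shown for Fos and Junb, which fell, and as a contrast for Jun, which did not pass. Synaptic calcium and cAMP act on Fos in part through a cAMP response element close to its start, and Jun is known for an AP-1-like site in its proximal promoter through which AP-1 regulates it. The stretches are the 110 bases before the start that RefSeq lists (GRCm38.p6), read 5′ to 3′ on the gene's strand. They lie at chr12:85473780-85473889 for Fos (plus strand), chr8:84978749-84978858 for Junb (minus strand) and chr4:95052223-95052332 for Jun (minus strand). Capitals mark TGACG, the core of the cAMP response element, on either strand, the AP-1-like TGACATCA, and TATAAA.
Fos: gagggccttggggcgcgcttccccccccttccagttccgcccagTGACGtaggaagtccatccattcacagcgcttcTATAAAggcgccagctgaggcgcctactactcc
Junb: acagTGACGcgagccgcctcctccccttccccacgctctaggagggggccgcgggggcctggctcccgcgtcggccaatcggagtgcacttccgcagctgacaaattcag
Jun: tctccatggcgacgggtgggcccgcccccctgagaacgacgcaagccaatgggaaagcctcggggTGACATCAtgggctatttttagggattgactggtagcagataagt

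A search of the 250 bases before the start, on both strands, found TGACG in Fos, Fosb and Junb, which is 3 of the 6 members, against 17.8% of all 32851 promoter windows in the RefSeq table. In Fos it began 129 and 66 bases before the start, in Junb 106 and in Fosb 60. TGACATCA was found in Jun, beginning 45 bases before the start, and in 2.93% of all windows. TATAAA was found in Fos, beginning 33 bases before the start, and in 12.4% of all windows. Within these 250 bases the full TGACGTCA (1.55% of all windows), TGANTCA (6.75%) and the CArG box (1.47%) were found in none of the 6. Sequence farther upstream was not searched, so a site there would have been missed. TGACG is part of TGACGTCA, so these searches overlap. The motifs were chosen with these sequences in view, and a match is a run of letters, not a shown binding site.

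Of 84 tested genes on 6 lists of genes linked to AP-1, 4 fell and 0 rose, and all 4 stood on the list of other activity-induced transcription factors. Each gene was represented by its brightest tested probe set. Over all tested probe sets the median log2 change was 0.0100, and 0.195% of 5653 genes passed.

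Other leucine zipper factors of the wider family, such as the Atf, Maf and Cebp genes, centred on a median log2 change of -0.0023 in 19 tested genes (24 on the array), with a range of -0.82 to 0.44. By limma 0 passed and 1 had an unadjusted p under 0.05. Those with the smallest p were Tef (0.29, SE 0.11) and Dbp (0.44, SE 0.20), circadian output factors, each at a limma adjusted p = 0.95.

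Components of the JNK and p38 pathway, which leads to phosphorylation of Jun and related factors, had a median of 0.07 over 12 tested genes, from -0.25 to 0.53. By limma 0 passed and 0 had an unadjusted p under 0.05. The smallest p belonged to Map3k7 (log2 change 0.53, SE 0.27), whose product is an upstream kinase of both branches, and Map2k3 (0.27, SE 0.14), an activator of p38.

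Genes listed as regulators of Fos and Jun transcription had a median of 0.03 over 9 tested genes, from -0.35 to 0.11. Tcf4 (log2 change -0.09) is among the 9, and its role at Fos and Jun is not shown here. The list held 21 genes, of which 13 were on the array. Srf and Creb1 were on the list but not among the tested genes, so the median does not describe them. By limma 0 passed and 0 had an unadjusted p under 0.05. Mrtfa, a coactivator of serum response factor, had a log2 change of -0.21 (SE 0.13), and the calcium-dependent kinase gene Camk4 one of -0.35 (SE 0.34).

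Cofactors and turnover factors of AP-1 had a median of -0.03 over 17 tested genes, from -0.34 to 0.54. By limma 0 passed and 1 had an unadjusted p under 0.05. That gene was Cop1, a ubiquitin ligase that acts on Jun (log2 change 0.54, SE 0.23, limma adjusted p = 0.95). Smarcd1, a chromatin remodelling subunit, had -0.18 (SE 0.11).

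Genes that AP-1 is known to regulate in various cells had a median of -0.04 over 19 tested genes, from -0.58 to 0.59. By limma 0 passed and 3 had an unadjusted p under 0.05. Npy, a neuropeptide of interneurons, read 1862, 1681 and 2103 in the deprived arrays, against 2477, 2342 and 2706 in the non-deprived arrays (log2 change -0.42, SE 0.11, limma adjusted p = 0.59). Scg2, a secretory granule protein, read 729.5, 626 and 692 in the deprived arrays, against 924, 1014 and 894 in the non-deprived arrays (-0.46, SE 0.12, limma adjusted p = 0.61). The deprived arrays were below the non-deprived ones for both. Groups did not overlap in the downward direction for 4 of the 19, against 4.59% of all tested probe sets. That count says nothing about the list, since Npy, Scg2 and the stress-response gene Gadd45b (named after its values were seen), among the 4, were placed on it with their values known.

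Of 13 tested genes for other activity-induced transcription factors 4 fell and 0 rose, and 12 had a lower mean log2 signal in deprived arrays, against 47.8% of all tested probe sets; the median log2 change was -0.50. These 4 had adjusted p-values from 0.00048 to 0.031 by limma. They were Egr2 (log2 change -1.57), Nr4a1 (-1.30), Egr1 (-1.13) and Ier2 (-1.07), and the log2 change of Fos was below each of them. Egr2, Nr4a1 and Egr1 passed in all 6 fits without 1 array, and Ier2 in 0 of 6. Atf3, a stress-induced zipper factor that can pair with Jun, had a log2 change of -0.06 (SE 0.23) and is named after its values were seen. The list was known from earlier results on these arrays and is no independent evidence of a direction.

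**Figure D4:**
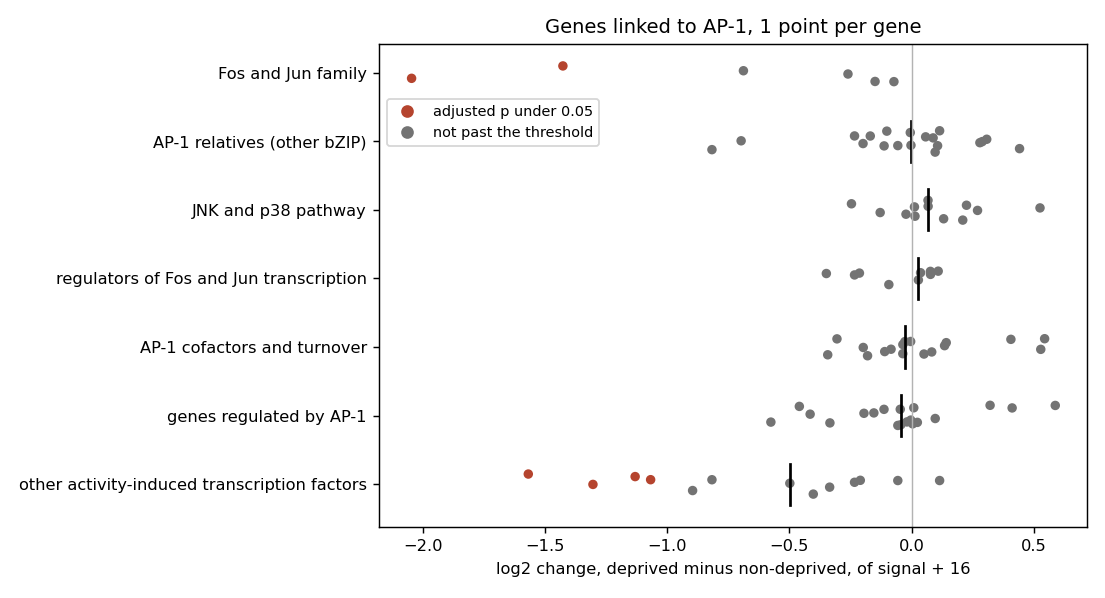
Log2 change (deprived minus non-deprived, of signal + 16) of each tested gene, 1 point per gene, for the Fos and Jun family and the 6 lists of linked genes; red points had an adjusted p under 0.05 and black bars are list medians. Points past the threshold appear in the family (Fos and Junb) and among the other activity-induced transcription factors (4 genes).

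The probe sets most like Fos over the 6 arrays were ranked by Pearson correlation of log2 signals among probe sets of other named genes, as a description in which the difference between the groups weighs most. They were Dusp1 (r = 0.995), a phosphatase of MAP kinases, Nr4a1 (0.993), an orphan nuclear receptor, Ap2a2 (0.981), an adaptor subunit of endocytosis, a dim _r probe set of the chemokine gene Cx3cl1 (0.977) and Egr2 (0.976), a zinc-finger factor. Ap2a2 had a much smaller change than the others, with 2594, 2536 and 2669 in the deprived arrays, against 3119.5, 2977 and 3164 in the non-deprived arrays (log2 change -0.25, SE 0.08, limma adjusted p = 0.95). It followed the grouping of Fos closely at a small size.

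The probe sets most like Jund were Dhx9 (r = 0.975), an RNA helicase gene, Nsmce1 (0.975) and Stmn4 (0.971), a gene of the stathmin family of tubulin-binding proteins. All 3 had their highest value in non-deprived replicate 1, as Jund did. Their log2 changes were -0.37 (SE 0.24), -0.21 (SE 0.26) and -0.08 (SE 0.09), each at a limma adjusted p = 0.97.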

How the data were processed

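The 6 arrays were deposited by the authors as linear-scale intensity values (MAS5 signals). The submitters' processing notes name MAS5, and other settings are not given in the sources used here. Scaling each array to a common 2% trimmed mean left the values nearly as deposited; the 66 controls were removed. The brightest 60% by mean signal (7453 probe sets, at least 134.7) were tested on log2(signal + 16), a pseudocount that shrinks fold changes of low signals. limma 3.58.1 in R 4.3.3 compared the groups (lmFit, eBayes with an intensity trend, two-sided, group as the only term), with Benjamini-Hochberg adjustment over all tested probe sets; adjusted p under 0.05 was the threshold. The fit was tested on simulated data, where it recovered 23% of 1.5-fold, 58.8% of 2-fold, 79.8% of 3-fold and 87.4% of 4-fold changes. Changes of the smaller sizes were thus often missed there. Each simulated set had 200 changed probe sets among 7453, and the rates need not hold where fewer change. No detection calls were used, and the number of arrays limits the precision.

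Symbols came from the platform annotation, updated by Entrez ID (10839 of 10855 single-symbol probe sets matched; 396 had several symbols and 1237 were unnamed here). Promoters are RefSeq's, with 6 of 6 members matched. The members and lists were chosen with earlier results of these data known. Named genes were all member probe sets; in each list the 2 smallest p-values and every gene past the threshold; the 5 probe sets most correlated with Fos and the 3 with Jund; and the marker with the largest change per list. Tbr1, Camk2a, Sst, Aldoc, Gadd45b, Atf3, Tcf4 and the bright Cx3cl1 probe set were named after their values were seen. Alternatives covered normalization, pseudocounts of 1 and 64, the filter, the intensity trend, 1 probe set per gene, a threshold of 0.10, the replicate block and leaving out each array. Pairs without Fos and the dim Fos probe set were added after seeing the data.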

Additional observations from a re-analysis of the deposited data

How the results depend on the processing

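The 3 member probe sets that fell passed in each of the settings run, including 6 fits without 1 array; with 1 probe set per gene only the brighter Junb was tested. Log2 changes without 1 array ran from -2.10 to -1.94 for Fos, -1.57 to -1.33 and -1.17 to -1.10 for Junb, -0.81 to -0.57 for Fosb, -0.29 to 0.0038 for Jun, -0.11 to -0.02 for Jund and -0.66 to 0.14 for Fosl2. Jun changed sign without non-deprived replicate 3, and Fosl2 without deprived replicate 1 or 3; Fosl2 fell under the filter without deprived replicate 2, without non-deprived replicate 1 and with the top 40%. Fosb did not pass in any of 15 settings (adjusted p 0.15 to 0.72). Over all probe sets the calls numbered 13, and 7 to 10 without 1 array. Related genes past the threshold numbered 4, and 3 whichever array was left out, since Ier2 then did not pass. The shift of Junb against Fos was 0.91 with the dimmer Junb probe set. With the dim Fos probe set, shifts were -0.79 for Junb, -0.048 for Fosb, 0.49 for Jun, 0.57 for Jund and 0.38 for Fosl2; that probe set is under the filter and not shown to lie above background, so these give no order of the genes, and the cause was not tested. Same-numbered arrays did not deviate together (correlations 0.0030, 0.05 and -0.02), and with the replicate number as a block 3 member probe sets and 10 of all probe sets passed.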
